A study of Mus musculus with 9 samples.

Results

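The mesothelial genes described here are 10 genes found by symbol in the deposited count table, which lists 55453 genes: Msln, Muc16, Upk3b, Upk1b, Lrrn4, Wt1, Krt19, Krt7, Krt8 and Krt18. They were read in messenger RNA of whole aortae from 9 C57BL/6J mice, with 3 mice labelled Itga8-Cre, 3 labelled Myh11-Cre and 3 labelled Wild Type. The series names the alleles as Itga8-CreERT2 and Myh11-CreERT2, Cre recombinases that act only in the presence of tamoxifen and are tied to the genes of integrin alpha 8 and of smooth muscle myosin heavy chain. The series set the new Itga8 line beside the Myh11 line. The labels give no sex, age or tamoxifen treatment, and no agent or allele that all 9 mice share. Each library is the aorta of 1 mouse and is named by its group and mouse number.

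By mean level, all 10 genes were higher in each Cre line than in the controls, and 9 of the 10 were highest in Myh11-Cre. The exception was Wt1, which was highest in Itga8-Cre. Mice of 1 group differed widely, and none of these differences passed the edgeR test adjusted over all genes. DESeq2, run beside it on the same counts, called 6 of the 10 higher in Myh11-Cre than in Wild Type, where it called 1.34% of all genes higher, and Msln and Krt19 were the 2 whose calls held whichever library was left out. The 10 genes also did not vary as 1 block, since Krt8 and Krt18 followed other libraries than Wt1 and Lrrn4 did.

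The mesothelium is the single layer of flat cells that lines the pleura, pericardium and peritoneum and covers the organs inside them. Its cells carry features of epithelium, such as keratins and a surface coat of glycoproteins, together with features of mesenchyme. The thoracic aorta runs beside the pleura and leaves the heart inside the pericardium, so an aorta taken whole can carry some of this lining. Keratins of simple epithelia, unlike Wt1 or Lrrn4, are also made by many other epithelia.

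Promoters are shown for 2 pairs of genes whose levels followed each other closely across the mice, Upk3b with Lrrn4 and Krt8 with Krt18. RefSeq promoter windows of GRCm38.p6, from 250 bases before to 50 bases after the start of the gene, were at hand for 6 of the 10 genes: Lrrn4, Upk3b, Muc16, Krt7, Krt8 and Krt18. Only the stretch outside annotated exons is printed, 5′ to 3′ on the strand of the gene. Capitals mark the TEAD motif CATTCC, or GGAATG where it lies on the other strand; no other searched motif lies in these 4 stretches.
Upk3b, chr5:136038246-136038495, plus strand: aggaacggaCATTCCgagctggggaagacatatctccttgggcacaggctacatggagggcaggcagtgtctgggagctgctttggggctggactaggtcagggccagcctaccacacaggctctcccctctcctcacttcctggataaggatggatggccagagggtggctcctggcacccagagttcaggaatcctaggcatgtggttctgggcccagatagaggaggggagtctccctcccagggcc
Lrrn4, chr2:132880892-132881112, minus strand: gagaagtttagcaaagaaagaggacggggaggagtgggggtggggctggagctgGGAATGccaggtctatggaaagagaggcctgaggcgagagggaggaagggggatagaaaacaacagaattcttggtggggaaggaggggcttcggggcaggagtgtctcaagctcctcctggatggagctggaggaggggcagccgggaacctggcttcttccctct
Krt8, chr15:102004483-102004592, minus strand: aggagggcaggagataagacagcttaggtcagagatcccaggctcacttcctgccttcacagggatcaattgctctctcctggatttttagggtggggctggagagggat
Krt18, chr15:102027966-102028179, plus strand: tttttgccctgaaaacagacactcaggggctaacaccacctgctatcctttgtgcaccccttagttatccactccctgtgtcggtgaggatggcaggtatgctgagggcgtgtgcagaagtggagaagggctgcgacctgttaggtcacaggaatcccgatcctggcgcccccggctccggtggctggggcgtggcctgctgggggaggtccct

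The TEAD motif began 241 bases before the start of Upk3b on the plus strand of the gene and 196 bases before the start of Lrrn4 on the other strand. In windows of the same 300 bases, 14.7% of 32817 RefSeq promoters hold CATTCC on either strand. The other motifs searched on both strands were TATAAA (13.6% of promoters), the GC box GGGCGG (35.6%), the AP-1 motif TGANTCA (7.81%) and the Grainyhead motif AACNGGTT (2.08%). Krt7 held GGGCGG and Krt8 held TATAAA in parts of their windows not printed. These matches describe letters in a window and are not measured sites. Krt8 and Krt18 are neighbours on chromosome 15 with starts 23874 bases apart, and they are read in opposite directions.

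Total counts per library ran from 31419238 to 42497543. Levels are given in CPM, counts divided by the library total after scaling with TMM factors and expressed in the usual relative unit, and a mean is followed by the SD of 3 mice. Counts of the 10 genes ran from 29 (Krt8 in Wild Type 3) to 5650 (Muc16 in Myh11-Cre 2), and all 10 passed the filter on low counts with 19412 genes in all. The common biological coefficient of variation was 0.294, and the values of the single members ran from 0.307 for Muc16 to 0.817 for Krt8. As a check of the tissue, Myh11, the myosin of smooth muscle, stood at 460 CPM or more in each of the 9 libraries. Itga8 was at 54.1 to 76.5 CPM in Itga8-Cre and at 147 to 475 CPM in Wild Type.

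Msln and Muc16 encode partners on the cell surface: mesothelin, a lipid-anchored glycoprotein, and the very large mucin that binds it. Msln (ENSMUSG00000063011.7, chromosome 17, 25748613 to 25754378, minus strand, GRCm38) had, for mice 1, 2 and 3 in turn, levels of 13.1, 12.5 and 21.5 CPM in the 3 Itga8-Cre mice, of 19.6, 42.9 and 35.1 CPM in the 3 Myh11-Cre mice and of 9.59, 5.24 and 5.15 CPM in the 3 Wild Type mice. All 6 libraries of the Cre lines lay above all 3 Wild Type libraries, while Itga8-Cre 3 overlapped the Myh11-Cre range. The group means of Msln were 15.7 ± 5.04 CPM (Itga8-Cre), 32.5 ± 11.8 CPM (Myh11-Cre) and 6.66 ± 2.54 CPM (Wild Type). Muc16 (ENSMUSG00000109564.1, chromosome 9, 18495455 to 18674530, minus strand) had levels of 52.5, 45.4 and 66.8 CPM in the 3 Itga8-Cre mice, of 57.4, 137 and 89.4 CPM in the 3 Myh11-Cre mice and of 45.2, 22.2 and 28.4 CPM in the 3 Wild Type mice. The groups of Muc16 also did not overlap between the Cre lines and Wild Type, but only narrowly for Itga8-Cre, whose lowest library was at 45.4 CPM against 45.2 CPM in Wild Type 1. Its locus overlaps Gm25295, a small RNA gene on the other strand, and the sources used here do not say whether strand was used in the counting.

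Msln was fitted 2.36-fold higher in Itga8-Cre than in Wild Type (log2 fold change 1.24, SE 0.37) and 4.89-fold higher in Myh11-Cre (2.29, SE 0.37). For Muc16 the fits were 1.72-fold in Itga8-Cre and 2.97-fold in Myh11-Cre. The edgeR adjusted p was 0.699 for both genes in Itga8-Cre and 0.218 for both in Myh11-Cre. DESeq2 gave adjusted p of 5.64e-06 for Msln and 0.00307 for Muc16 in Myh11-Cre, and of 0.231 and 0.564 in Itga8-Cre.

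Upk3b and Upk1b encode uroplakins, membrane proteins named for the plaques of the bladder lining; Upk1b is a tetraspanin, and mesothelial cells make both. Upk3b (ENSMUSG00000042985.7, chromosome 5, 136038496 to 136046487, plus strand) had levels of 24.3, 18.4 and 16.7 CPM in the 3 Itga8-Cre mice, of 27.2, 44.9 and 24.5 CPM in the 3 Myh11-Cre mice and of 22.8, 8.25 and 9.66 CPM in the 3 Wild Type mice. Every Myh11-Cre library lay above every Itga8-Cre and every Wild Type library, whereas Itga8-Cre overlapped Wild Type through Wild Type 1. Upk1b (ENSMUSG00000049436.5, chromosome 16, 38773184 to 38800328, minus strand) had levels of 5.78, 7.05 and 4.16 CPM in the 3 Itga8-Cre mice, of 4.84, 13.3 and 6.64 CPM in the 3 Myh11-Cre mice and of 3.71, 2.35 and 2.06 CPM in the 3 Wild Type mice. All libraries of the Cre lines lay above Wild Type for Upk1b, and both Cre lines overlapped each other. In Myh11-Cre, Upk3b was 2.38-fold higher than in Wild Type (edgeR adjusted p = 0.232, DESeq2 adjusted p = 0.0421) and Upk1b 3.06-fold (0.218 and 0.00666).

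Lrrn4, a leucine-rich repeat membrane protein, and Wt1, the zinc-finger transcription factor of the embryonic and adult mesothelium and of kidney podocytes, were the members whose groups overlapped in every comparison. Lrrn4 (ENSMUSG00000043110.2, chromosome 2, 132868305 to 132880891, minus strand) had levels of 16.5, 14.9 and 9.76 CPM in the 3 Itga8-Cre mice, of 16.2, 23.9 and 11.3 CPM in the 3 Myh11-Cre mice and of 12.6, 7.3 and 5.6 CPM in the 3 Wild Type mice. Wt1 (ENSMUSG00000016458.14, chromosome 2, 105126529 to 105173616, plus strand) had levels of 9.49, 9.79 and 2.89 CPM in the 3 Itga8-Cre mice, of 5.55, 9.5 and 3.93 CPM in the 3 Myh11-Cre mice and of 5.16, 4.84 and 2.58 CPM in the 3 Wild Type mice. For both genes all 3 groups overlapped, and the third mouse of each group was the lowest of its group. Lrrn4 was 1.62-fold higher in Itga8-Cre and 2.02-fold higher in Myh11-Cre than in Wild Type, and Wt1 1.76-fold and 1.51-fold, with edgeR adjusted p from 0.253 to 0.707 and no DESeq2 call.

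The 4 keratins form filaments of simple epithelia, in which a type I keratin (Krt18 or Krt19) pairs with a type II keratin (Krt8 or Krt7). Krt19 (ENSMUSG00000020911.14, chromosome 11, 100140810 to 100148665, minus strand) had levels of 7.95, 6.03 and 16.7 CPM in the 3 Itga8-Cre mice, of 7.83, 30 and 21.7 CPM in the 3 Myh11-Cre mice and of 3.85, 2.59 and 2.65 CPM in the 3 Wild Type mice. Krt7 (ENSMUSG00000023039.17, chromosome 15, 101411043 to 101430313, plus strand) had levels of 3.4, 6.06 and 10.9 CPM in the 3 Itga8-Cre mice, of 3.56, 17 and 10.7 CPM in the 3 Myh11-Cre mice and of 1.83, 2.75 and 1.87 CPM in the 3 Wild Type mice. For both, each library of the Cre lines lay above each Wild Type library, and Itga8-Cre 3, Myh11-Cre 2 and Myh11-Cre 3 were the 3 highest libraries. Krt19 was 3.37-fold higher in Itga8-Cre (log2 fold change 1.75, SE 0.53) and 6.54-fold higher in Myh11-Cre (2.71, SE 0.54), with DESeq2 adjusted p of 0.177 and 0.000142. Krt7 was 3.14-fold and 4.83-fold higher, with DESeq2 adjusted p of 0.315 and 0.00512, and the edgeR adjusted p was 0.699 in Itga8-Cre and 0.218 in Myh11-Cre for both genes. Krt7 overlaps the antisense gene Gm671.

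Krt8 and Krt18, the most widely shared pair of simple epithelia, had the widest spread between mice. Krt8 (ENSMUSG00000049382.10, chromosome 15, 101996698 to 102004482, minus strand) had levels of 1.66, 2.16 and 27.1 CPM in the 3 Itga8-Cre mice, of 11.8, 26.2 and 14.7 CPM in the 3 Myh11-Cre mice and of 3.16, 3.97 and 0.755 CPM in the 3 Wild Type mice. Krt18 (ENSMUSG00000023043.7, chromosome 15, 102028180 to 102032027, plus strand) had levels of 1.8, 3.65 and 26.6 CPM in the 3 Itga8-Cre mice, of 14.7, 25.7 and 13.1 CPM in the 3 Myh11-Cre mice and of 4.23, 6.21 and 1.85 CPM in the 3 Wild Type mice. The highest library held 35.9 times the level of the lowest for Krt8 and 14.8 times for Krt18, against 3.8 times for Wt1. In Itga8-Cre, mouse 3 alone was high for both genes and the other 2 mice lay within or below the Wild Type range. In Myh11-Cre, Krt8 was 6.69-fold (log2 fold change 2.74, SE 1.08) and Krt18 4.35-fold (2.12, SE 0.92) higher than in Wild Type without overlap, and neither edgeR (adjusted p 0.274 and 0.3) nor DESeq2 (0.144 and 0.219) called them. Krt8 overlaps the long noncoding gene Gm36026, and the sources used here do not say how reads shared with near-identical copies were counted.

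**Figure D1:**
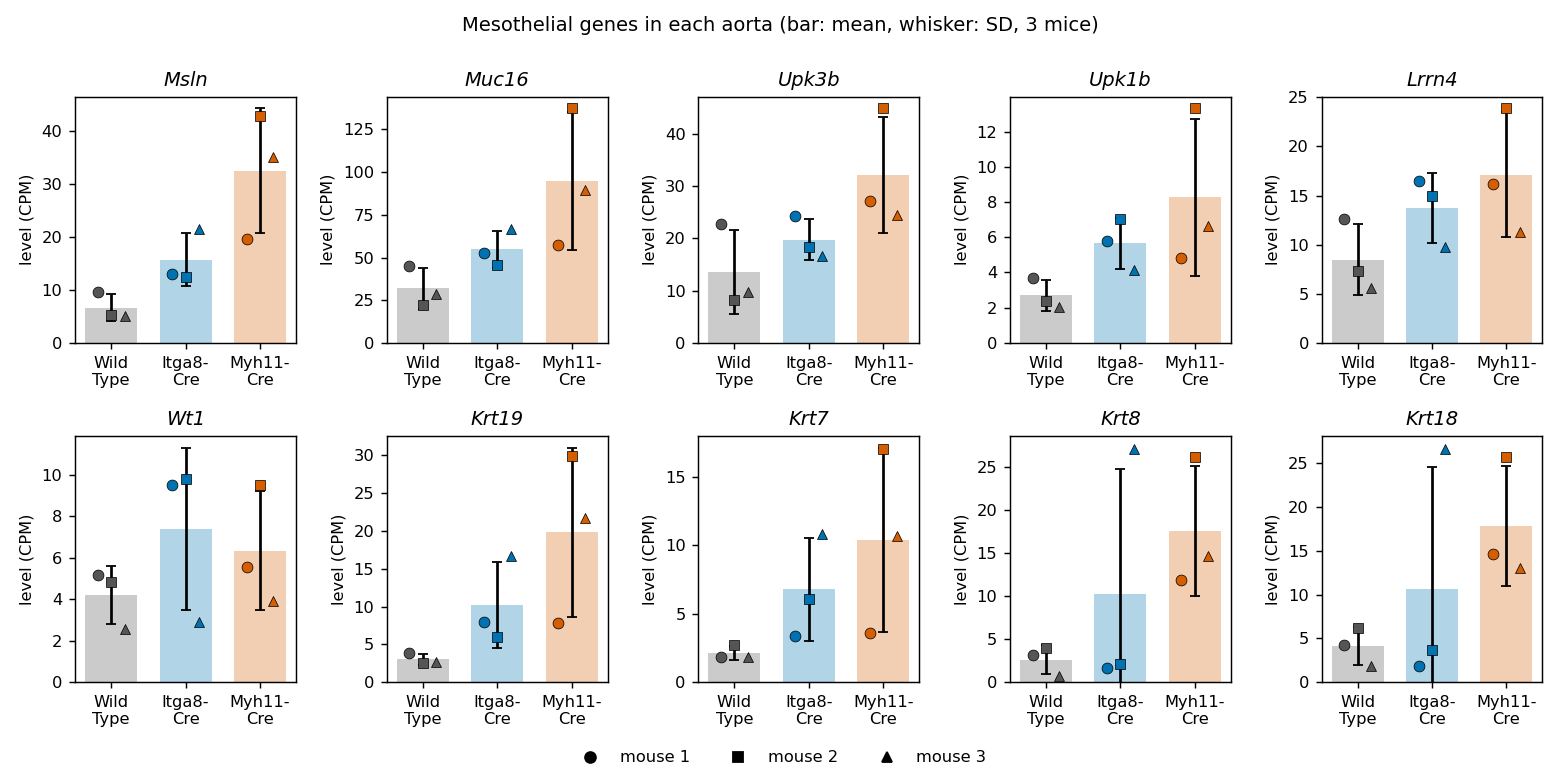
Levels of the 10 mesothelial genes in each aorta, on a linear CPM axis that differs between panels; bars are means of 3 mice, whiskers the SD, and symbols the mouse numbers. Myh11-Cre 2 is the highest library in 7 of the 10 panels, and Itga8-Cre 3 stands alone above its group for Krt8 (27.1 CPM) and Krt18 (26.6 CPM).

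Myh11-Cre 2 was the highest of the 9 libraries for 7 of the 10 genes, Itga8-Cre 3 for Krt8 and Krt18, and Itga8-Cre 2 for Wt1. At the other end, Wild Type 3 was the lowest library for 5 genes and Wild Type 2 for 3. Krt7 was lowest in Wild Type 1, and Krt18 in Itga8-Cre 1.

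Per length of exon (RPKM, with GENCODE M21 union exon lengths), the order of the means over 9 libraries was Krt18 (7.56 ± 6.82), Upk3b (6.19 ± 3.08), Msln (5.97 ± 4.28), Krt19 (5.95 ± 5.19), Krt8 (5.19 ± 5.35), Lrrn4 (3.53 ± 1.49), Upk1b (2.65 ± 1.62), Muc16 (2.3 ± 1.33), Wt1 (0.964 ± 0.466) and Krt7 (0.914 ± 0.747). Muc16 lay above Wt1 in each of the 9 libraries, and their means differed by more than the SD of either. Krt8 and Lrrn4 differed by more than the SD of Lrrn4 but not that of Krt8. Other neighbours in this order did not differ by more than the SD of either. Muc16, the member with the most counts, was low in this order, its exons spanning 26350 bases against 1437 bases for Krt18. In Wild Type alone Upk3b was at 3.84 ± 2.27 RPKM, Krt18 at 2.85 ± 1.52 RPKM and Krt7 at 0.305 ± 0.0738 RPKM.

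In Itga8-Cre against Wild Type, all 10 members had a positive fitted log2 fold change, as did 55.9% of the 19412 genes tested. Their median was 1.15, against 0.036 over all genes tested. The edgeR test called 0 members and 0 genes, the smallest adjusted p over all genes being 0.494. At an unadjusted p under 0.05 it gave 1316 genes (6.78%) and 4 members, Msln, Upk1b, Krt19 and Krt7, all higher, where 3.97% of genes were higher. For 5 members all 3 Itga8-Cre libraries lay above all 3 Wild Type libraries (Msln, Muc16, Upk1b, Krt19 and Krt7), which held for 5.76% of all genes. DESeq2 called 30 genes (0.165%) and 0 members, and limma voom called 0 genes. As the tissue was read in bulk, a change in the number of cells of a type and a change in RNA per cell cannot be told apart. This holds for this and any later comparison.

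In Myh11-Cre against Wild Type, all 10 members again had positive fitted values, with a median of 1.87 against 0.0072 over all genes, of which 50.9% were positive. With edgeR 0 members and 0 genes were called (smallest adjusted p 0.218), while 9 members, all but Wt1, had an unadjusted p under 0.05 and a higher level, as did 6.93% of genes. Groups were separate for 8 members, all but Lrrn4 and Wt1, against a background of 11.3% of genes separate in this direction. DESeq2 called 830 genes, and its 6 members (Msln, Muc16, Upk3b, Upk1b, Krt19 and Krt7) were all higher, against 1.34% of genes called higher. limma voom called 0 genes, and the number of edgeR genes at an unadjusted p under 0.05 was 3187 (16.4%).

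In the direct comparison of both lines, Itga8-Cre was lower than Myh11-Cre for 9 of the 10 members, and Wt1 was fitted higher (log2 fold change 0.22, SE 0.50), where 51.3% of genes were higher. The median was -0.72, against 0.0095 over all genes. No member or gene was called by edgeR (smallest adjusted p 0.521; 1840 genes, or 9.48%, at an unadjusted p under 0.05), and DESeq2 called 19 genes (0.109%) with 0 members among them. Msln was the member with an unadjusted p under 0.05, at a log2 fold change of -1.05 with a 95% interval of -1.87 to -0.23, where 1.83% of genes were lower. Upk3b was the 1 member whose groups did not overlap, against 3.07% of genes lower without overlap. The intervals of the other 9 members included 0, and the widest, that of Krt8, ran from -3.07 to 1.52.

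With both Cre lines averaged against Wild Type, the median of the members was 1.55, against 0.023 over all genes, and 10 of 10 were positive, as were 53.4% of genes. Again edgeR called 0 members and 0 genes (smallest adjusted p 0.127; 2413 genes, or 12.4%, at an unadjusted p under 0.05), and 8 members, all but Wt1 and Krt18, were higher at an unadjusted p under 0.05, as were 4.8% of genes. For Msln, Muc16, Upk1b, Krt19 and Krt7 all 6 libraries of the Cre lines lay above all 3 Wild Type libraries, which held for 1.93% of genes. DESeq2 called the same 5 members among 333 genes, 0.463% of genes being called higher. The comparisons with Wild Type share the same 3 control libraries, so their values stand side by side and are not independent of each other.

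**Figure D2:**
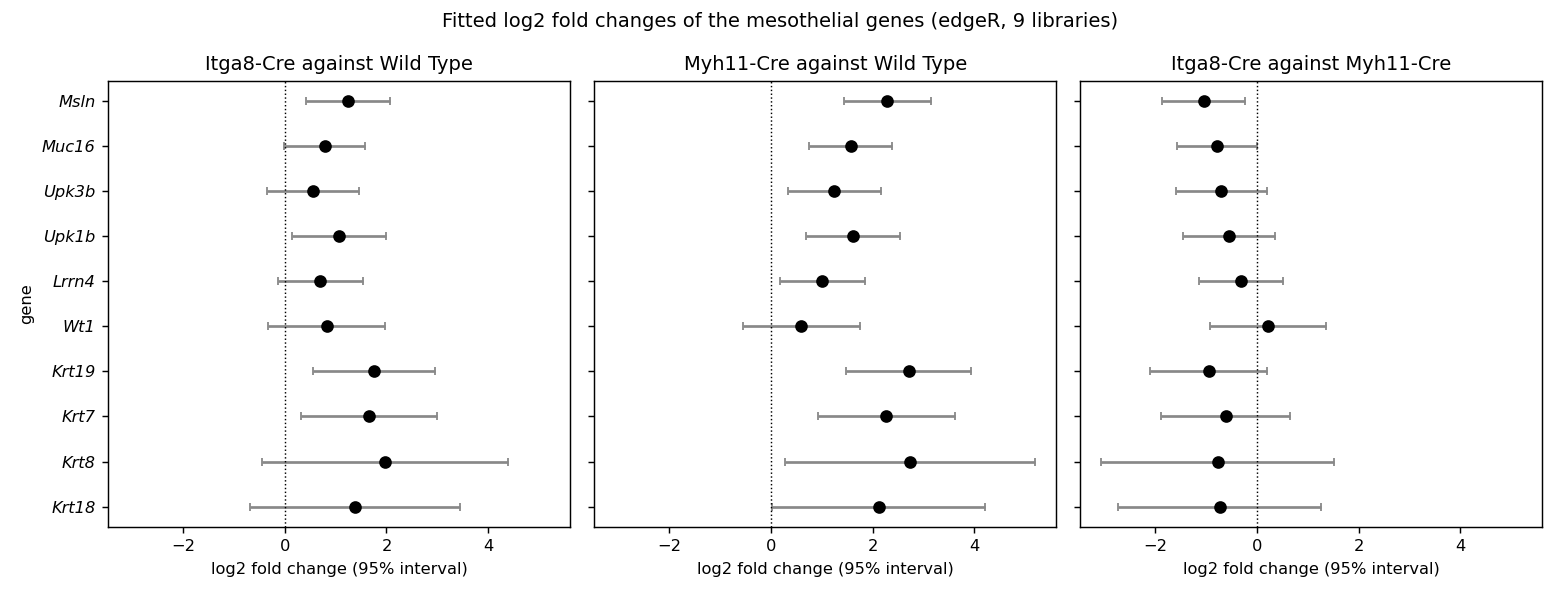
Fitted log2 fold changes of the 10 genes from edgeR with 95% intervals, for 3 comparisons on 1 scale; the dotted line marks no difference. All 10 points lie above 0 against Wild Type in both Cre lines, the intervals are widest for Krt8 and Krt18, and the interval of Wt1 includes 0 in each panel.

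How far the values rest on single mice differed between members. In Itga8-Cre against Wild Type, Krt8 went from 1.97 to -0.47 on the log2 scale and Krt18 from 1.38 to -0.60 once Itga8-Cre 3 was left out. In Myh11-Cre against Wild Type the direction of each member held without any 1 library, with Msln between 2.05 and 2.65 and Krt19 between 2.29 and 3.09. The smallest edgeR adjusted p in these fits was 0.0833. DESeq2 called Msln and Krt19 in 9 of 9 fits without 1 library (largest adjusted p 0.00223 and 0.0172), Muc16, Upk1b and Krt7 in 6 of 9, Upk3b in 5 of 9, and Wt1 in 0 of 9. It called Krt18 in 2 of 9 fits (adjusted p 0.000873 without Itga8-Cre 3 and 0.0271 without Itga8-Cre 1). Krt8 was called in 1 (8.23e-05 without Itga8-Cre 3) and Lrrn4 in 1 (0.00454 without Wild Type 1). DESeq2 gave no adjusted p for Krt18 in any fit without a Wild Type library, nor for Krt8 in any without a Myh11-Cre library. Those fits could not call them. Itga8-Cre 1 and 3 belong to neither group compared here and enter through the shared estimate of the spread. The number of members called was 8 without Itga8-Cre 3, where 2.36% of all genes were called higher, and 2 without Myh11-Cre 2, where 0.139% were. It was 3 without Wild Type 2 and 2 without Wild Type 3, where 0.33% and 0.0694% of genes were called higher. Over the 9 fits the share of genes called higher ran from 0.0694% to 5%. For Itga8-Cre against Myh11-Cre, DESeq2 called Msln, Krt8 and Krt18 lower without Itga8-Cre 3, and Msln, Muc16 and Krt19 lower without Myh11-Cre 1, where it called 1.29% and 2.82% of genes lower. In Itga8-Cre against Wild Type, where it called 0 members over all libraries, it called Krt19 and Krt7 without Itga8-Cre 1, Krt19 without Itga8-Cre 2, Msln, Krt19 and Krt7 without Myh11-Cre 1, and Msln without Wild Type 1. In these 4 fits 1.79%, 0.122%, 0.0874% and 0.025% of genes were called higher. With both lines averaged its 5 members became 3 without Itga8-Cre 3, 2 without Myh11-Cre 2 or without Wild Type 2, and 1, Msln, without Wild Type 3, and over the 9 fits it called from 0.0151% to 2.38% of genes higher.

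Markers of other epithelia varied alongside these values. For 12 general epithelial genes, such as the adhesion molecule Cdh1, the claudin Cldn3 and the transcription factor Ehf, the summed levels were 6.95, 12.9 and 63.7 CPM in the Itga8-Cre mice, 19.2, 84.6 and 68.3 CPM in the Myh11-Cre mice and 9.04, 6.85 and 9.97 CPM in the Wild Type mice. Itga8-Cre mouse 3 and Myh11-Cre mice 2 and 3 were thus high and Wild Type low. The same 3 libraries were highest in 8 skeletal muscle genes, with summed levels of 5063, 7901 and 11989 CPM against 82.1 to 1530.2 CPM in the other 6. All 12 of these genes were higher without overlap in Myh11-Cre than in Wild Type, with a median log2 fold change of 2.99, and DESeq2 called 9 of them. In Itga8-Cre all 12 were positive with a median of 1.81, and 1 was separate. What part epithelial or muscle tissue had in the differences of the members was not tested.

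Without those 3 libraries, a choice made after the data were seen, Itga8-Cre keeps 2 mice and Myh11-Cre 1, whose spread is then assumed to be that of the other groups. Msln was then 1.91-fold higher in Itga8-Cre and 2.96-fold higher in Myh11-Cre than in Wild Type, and Krt19 2.29-fold and 2.59-fold. Krt8 was at -0.47 on the log2 scale in Itga8-Cre and at 2.18 in Myh11-Cre, and Krt7 was fitted at 1.66-fold in Myh11-Cre. The median over members in Myh11-Cre was 0.98 in place of 1.87. DESeq2 on these 6 libraries called Msln in Myh11-Cre (adjusted p = 0.0340) and Krt19 in Itga8-Cre (0.0452), Krt18 between the lines (0.0313), and Msln and Krt19 with both lines averaged (0.0251 and 0.00786). These fits called 0.606% of genes higher in Myh11-Cre, 0.498% higher in Itga8-Cre, 0.688% lower in Itga8-Cre than in Myh11-Cre and 0.236% higher with both lines averaged.

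**Figure D3:**
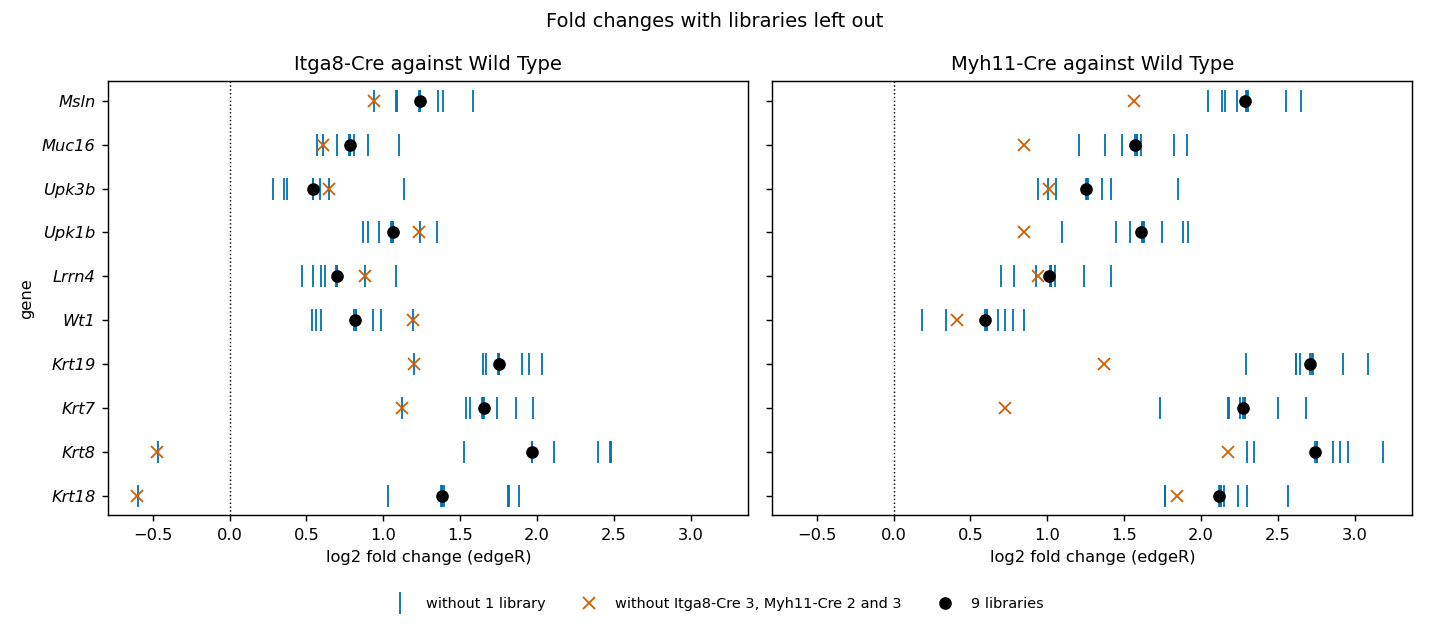
Fitted log2 fold change of each gene against Wild Type with all 9 libraries (dots), with 1 library left out at a time (ticks) and with the 3 libraries highest in epithelial genes left out (crosses). Krt8 and Krt18 cross 0 in Itga8-Cre, to -0.47 and -0.60, when Itga8-Cre 3 is absent, and the points of the other 8 genes stay above 0 in both panels.

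The next question was how far the 10 genes varied together across the 9 mice. Correlations were computed on log2(CPM + 0.1), the libraries being shared by all genes. Among 45 pairs of members the median Pearson r was 0.74, with 18 pairs above 0.8 and 5 under 0.3. Krt8 and Krt18 had the highest value, at 0.98, and Wt1 and Krt18 the lowest, at -0.10. The 5 low pairs were Wt1 with Msln, Krt19, Krt7, Krt8 and Krt18. Upk3b and Lrrn4 were at 0.92, and Wt1 was closest to Lrrn4 at 0.82.

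Against Msln, 9 correlations were tested by exact two-sided permutation of the pairings of 9 libraries. Muc16 (r = 0.97, rho = 0.98) and Krt19 (r = 0.97, rho = 0.97) followed Msln most closely, with exact p of 8.27e-06 and 3.31e-05, or 7.44e-05 and 0.000149 after Benjamini-Hochberg adjustment over the 9. Their r was 0.96 and 0.94 without the 2 libraries farthest from the median of Msln, Myh11-Cre 2 and Myh11-Cre 3, and 0.94 and 0.93 with the group means removed. Krt7 (0.87), Upk1b (0.86), Upk3b (0.85) and Krt8 (0.82) came next, with adjusted exact p from 0.00743 to 0.0136 and r from 0.53 to 0.69 within groups. Krt18 (r = 0.74, rho = 0.68) and Lrrn4 (r = 0.71, rho = 0.58) had adjusted exact p of 0.0326 and 0.0347 for r but 0.0647 and 0.121 for rho. Their r was 0.55 and 0.25 with the group means removed. Wt1 did not follow Msln (r = 0.28, rho = 0.27, exact p = 0.458), and its r was -0.11 with the group means removed. Of the 9 members, 8 had an adjusted exact p under 0.05 for r, and 5 without Wild Type 3. The share of all genes that would pass the same test is not given here. A gene outside the members, Rrp1 (r = 0.985), followed Msln more closely than Muc16 did.

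**Figure D4:**
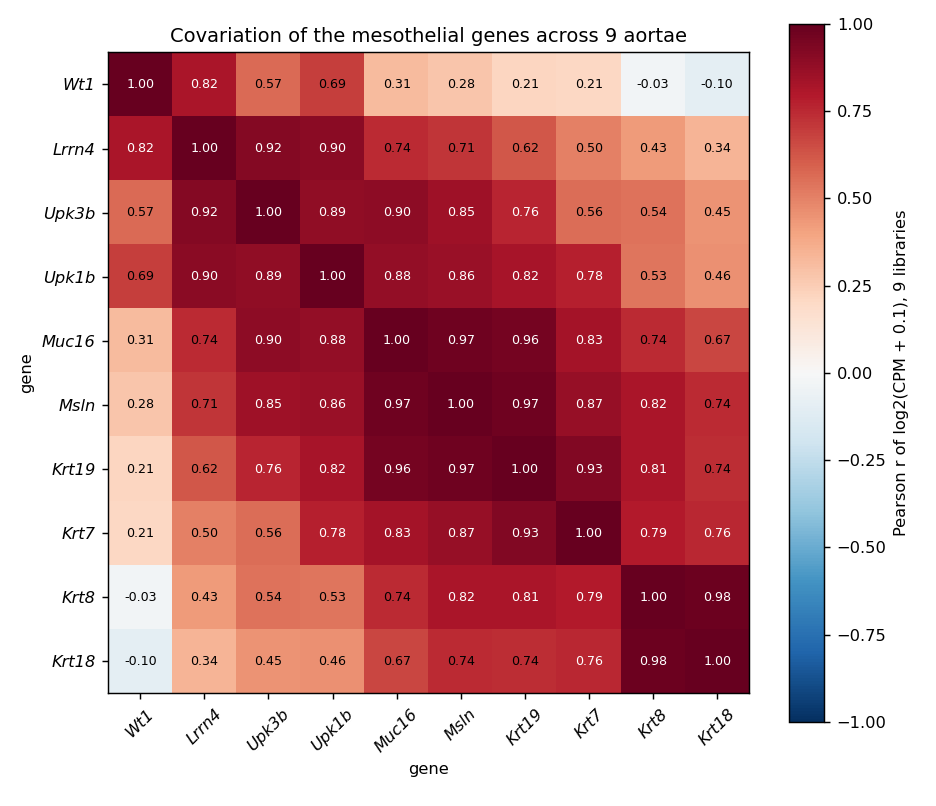
Pearson r of log2(CPM + 0.1) across the 9 aortae for each pair of the 10 genes, with the value in each cell and colour from -1 (blue) to 1 (red). The block from Muc16 to Krt7 runs high, Krt8 and Krt18 form a pair at 0.98, and Wt1 is near 0 or below with both of them.

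Ratios between members were compared between the 6 mice of the Cre lines and the 3 Wild Type mice, for 12 ratios, by exact two-sided permutation tests, whose smallest possible p is 0.0119. The ratio of Muc16 to Msln was 3.98, 3.61 and 3.09 in Itga8-Cre, 2.91, 3.2 and 2.54 in Myh11-Cre, and 4.68, 4.19 and 5.42 in Wild Type. All Cre mice lay below all Wild Type mice, by -0.57 on the log2 scale, with an exact permutation p of 0.0119 that was 0.143 after adjustment over the 12 ratios. The ratio of Krt18 to Krt8 was lower by -0.59 (exact p = 0.0476, adjusted 0.286), running from 0.891 to 1.66 in the Cre lines and from 1.33 to 2.28 in Wild Type. Wt1 relative to Msln was lower by -1.14 (exact p = 0.167), and no ratio passed the adjusted threshold.

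Other genes known from mesothelium and epicardium, a list of 15 with Bnc1, Gpm6a, Rspo1, Pkhd1l1 and Ildr2 among them, differed less between the groups. In Itga8-Cre against Wild Type 12 of the 15 were positive with a median log2 fold change of 0.57, and in Myh11-Cre 13 were positive with a median of 0.88. edgeR called 0 of them, and DESeq2 called 4 higher and 1 lower in Myh11-Cre and 0 in Itga8-Cre. Summed over the list, the Itga8-Cre mice were at 180, 180 and 122 CPM, the Myh11-Cre mice at 134, 283 and 143 CPM and the Wild Type mice at 149, 114 and 106 CPM, so that these groups overlapped. Pkhd1l1, the most abundant of them, averaged 61.5 ± 11.9 CPM (Itga8-Cre), 74.3 ± 34 CPM (Myh11-Cre) and 49.2 ± 11.5 CPM (Wild Type). For Gpm6a, a membrane glycoprotein, the same means were 14.6 ± 1.68 CPM, 22 ± 7.48 CPM and 9.85 ± 3.66 CPM. Calb2, the calretinin used to stain mesothelium, was at 1.9 CPM or less in each library and at 0 CPM in Myh11-Cre 2 and 3. It was the 1 gene of the list that DESeq2 called lower in Myh11-Cre than in Wild Type (adjusted p = 0.0164). Its edgeR log2 fold change there was -5.19, and -1.14 in Itga8-Cre, opposite in direction to the 10 members. The 3 Wild Type mice were at 0.029, 1.27 and 1.9 CPM.

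Members differed in which of these lists they followed, given here as the median r over the genes of a list. With the other mesothelial genes the values were 0.85 for Lrrn4, 0.74 for Upk3b and for Upk1b, 0.69 for Wt1, 0.48 for Msln, 0.34 for Krt8 and 0.26 for Krt18. With the general epithelial genes the order turned, with 0.89 for Krt19, 0.88 for Krt7, 0.86 for Msln, Krt8 and Krt18, 0.83 for Muc16, 0.34 for Lrrn4 and -0.11 for Wt1. Bnc1, a zinc-finger factor, and Rspo1, a secreted enhancer of Wnt signalling, both chosen after their values were seen, had r of 0.90 and 0.94 with Wt1. As a check of the members' name, Wt1, Lrrn4 and the uroplakins varied more closely with the other mesothelial genes than with the general epithelial ones. For the keratins, Msln and Muc16 (0.50 with the other mesothelial genes) it was the other way round. The r of Msln ran from -0.74 to 0.89 with the mesothelial and from 0.71 to 0.88 with the epithelial genes. For Muc16 the ranges were -0.76 to 0.93 and 0.69 to 0.85, and Gpm6a was the highest for both. With 8 macrophage genes the median was 0.75 for Wt1 and 0.78 for Upk1b, above their mesothelial medians. It was 0.68 for Lrrn4 and 0.56 for Upk3b, below theirs. For Wt1 and Upk1b the check thus did not single out mesothelium.

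Thymic epithelial genes varied with the pair Krt8 and Krt18. The median r over 10 such genes was 0.73 for Krt8 and 0.79 for Krt18, against 0.30 for Msln. For both keratins it was lower than with the general epithelial genes, at 0.86 each. Prss16, a protease of the thymic cortex, had levels of 0.172, 0.387 and 62.5 CPM in the 3 Itga8-Cre mice, of 31, 28.2 and 0.625 CPM in the 3 Myh11-Cre mice and of 6.98, 14.9 and 0.39 CPM in the 3 Wild Type mice. Psmb11, the proteasome subunit of the thymic cortex, chosen after its values were seen, was at 9.41, 5.2 and 4.5 CPM in Itga8-Cre 3, Myh11-Cre 1 and Myh11-Cre 2 and at 3.17 CPM or less elsewhere. The 10 thymocyte genes summed to 1136 CPM in Itga8-Cre 3, to 770 and 600 CPM in Myh11-Cre 1 and 2, and to between 177 and 427 CPM in the other 6 libraries. Krt8 and Krt18 were high in the same 3 libraries, and also in Myh11-Cre 3, where Prss16 was low. The part of thymic tissue in the keratin values was not tested.

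Genes listed for the bladder lining, apart from Krt13, were low but not evenly spread. Upk3a, the partner of Upk1b in the plaques of the bladder, was at 1.08 CPM in Itga8-Cre 2 and at 1.24 CPM in Myh11-Cre 2, at 0 CPM in 6 of the other 7 libraries and at 0.0264 CPM in the last. Upk1a was at 1.11 and 1.53 CPM in the same 2 libraries and between 0.059 and 0.274 CPM elsewhere, and the keratin Krt20 was at 0.857 and 1.09 CPM against 0.26 CPM or less elsewhere. Upk2 was at 0.34 CPM or less in each library. Itga8-Cre 2 and Myh11-Cre 2 were also the 2 libraries highest in Upk1b, at 7.05 and 13.3 CPM, and the part of urothelial RNA in the uroplakin values was not tested. Krt13 of stratified epithelia, also in the list of bladder genes and chosen after its values were seen, was at 196 CPM in Myh11-Cre 2. It was at 0.182 CPM or less in the other 8. Krt5 was highest in the same library, at 59.8 CPM, against 7.64 CPM or less elsewhere. Myh11-Cre 2 was also the library in which 7 of the 10 members peaked.

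**Figure D5:**
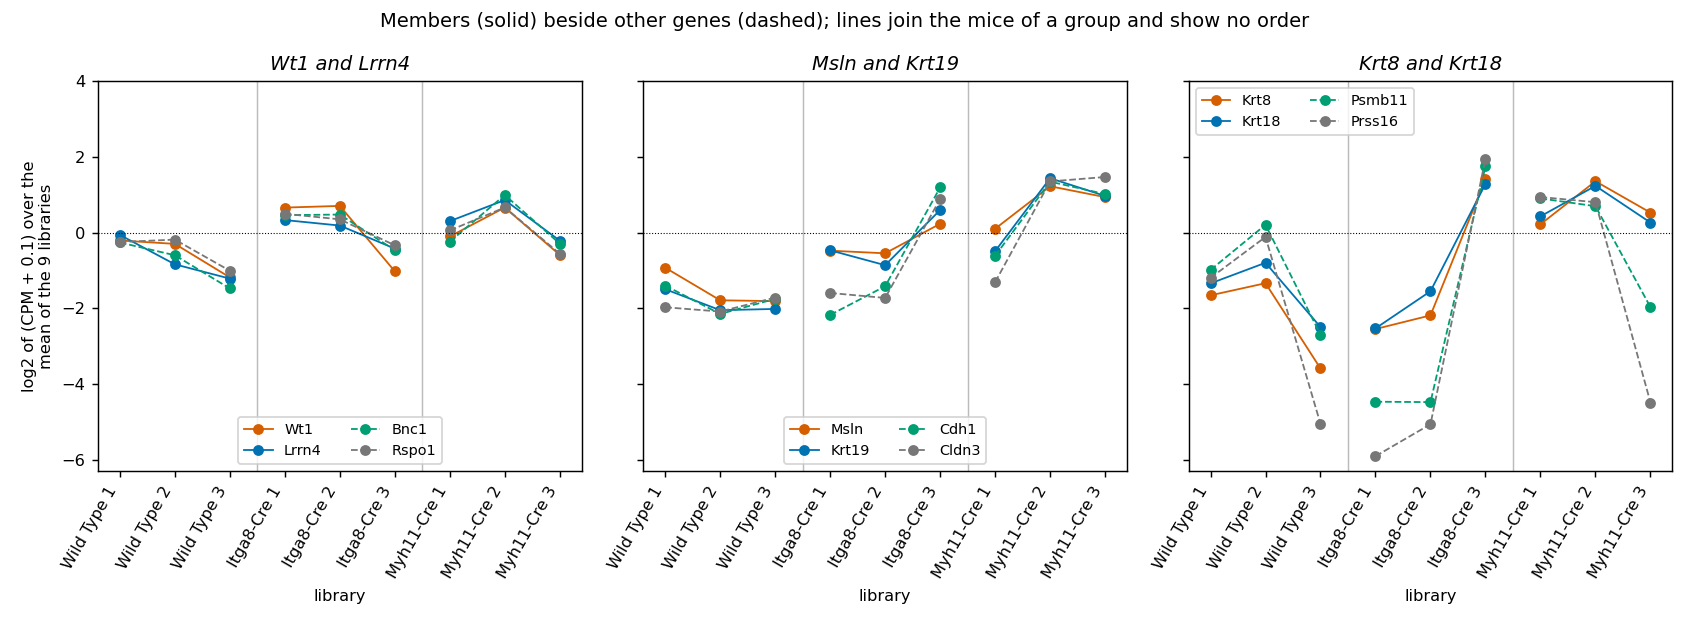
Levels per library as log2 of (CPM + 0.1) over the mean of the 9 libraries, for pairs of members (solid) and genes of other lists (dashed); lines join the mice of a group and show no order. Wt1 and Lrrn4 follow Bnc1 and Rspo1, and Krt8 and Krt18 follow Psmb11 and Prss16 except in Myh11-Cre 3. Msln and Krt19 follow Cdh1 and Cldn3 except in Itga8-Cre 1 and 2. There Msln is at 13.1 and 12.5 CPM (Wild Type 5.15 to 9.59 CPM) and Cdh1 at 1.97 and 3.4 CPM (Wild Type 2.01 to 3.45 CPM). Krt8 and Krt18 had a higher median r with the general epithelial genes (0.86 each) than with the thymic epithelial genes (0.73 and 0.79).

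Among 13785 tested genes with a mean of at least 1 CPM, the profiles most like that of Msln over the 9 libraries were those of Rrp1 (r = 0.985), Ap4s1 (0.973), Nsmce2 (0.971), Prpf18 (0.965), Psmg2 (0.956) and Oma1 (0.956). Rrp1 varied from 66.4 to 72.8 CPM, far less than Msln, since Pearson r measures a linear relation whatever the size of the changes. The profiles most like Krt8 were those of Prmt5 (0.959), Kremen1 (0.955), Fat2 (0.954), Grhl2 (0.942), Cldn4 (0.941) and Dynlt1f (0.939). Grhl2, a transcription factor of epithelia, ran from 0.286 to 5.06 CPM and Cldn4, a claudin of tight junctions, from 0.0858 to 2.99 CPM. These genes were picked as the highest of 13785 values each, and the likeness is given as a description.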

How the data were processed

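Messenger RNA of 9 whole aortae (3 mice in each of 3 groups) was read as single-end 75 nt libraries made with a stranded kit, per the labels' protocols. The authors deposited a table of raw counts per gene, which was used for every value. The submitters' processing notes name GRCm38.p6 as the build, STAR 2.7.0f, fastp 0.20.0, Salmon 0.13.1, DESeq2, and featureCounts with Subread 1.6.4. The sources used here give neither the annotation release nor the use of strand. A second deposited table of normalized values was not used.

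Counts were fitted in R 4.3.3 with edgeR 4.0.16 (filterByExpr by group, TMM, robust quasi-likelihood F test, 1 group-means fit over 9 libraries, median prior degrees of freedom 2.67), with Benjamini-Hochberg adjustment over 19412 of 55453 genes and a threshold of 0.05. DESeq2 1.42.0 and limma 3.58.1 were run beside it. The average of both Cre groups was set against Wild Type in the same fit. Groups were called separate when no library of 1 overlapped the range of the other. Log values used a pseudocount of 0.1 CPM. The fit was tested on simulated counts with the same spread for every gene, unlike these data. That test does not show what can be called here. Positions come from GENCODE M21, sequences from RefSeq. Replicate libraries differed by far more than counting noise, so none was merged. The labels name separate mice, but no batch or date.

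The 10 members, the other gene lists and the tests were chosen with earlier results of these data known. Named genes are the members, up to 3 tested genes of each list with the highest mean CPM, the 6 most like Msln and Krt8, and Itga8 and Myh11 as a check of the labels, leaving out unnamed gene models and receptor segments. Bnc1, Rspo1, Psmb11, Krt13, Krt5, Upk1a, Upk2, Upk3a and Calb2 fall outside this rule and were named after their values were seen. As alternatives the scaling, the filter on low counts and the tool were changed, only the compared groups were fitted, mouse number was used as a block, and libraries were left out.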

Additional observations from a re-analysis of the deposited data

How the results depend on the processing

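With edgeR the number of members called stayed at 0 in each of the 4 comparisons under every scaling, filter and left-out library tried, and the median log2 fold change of the members ran from 0.91 to 1.37 in Itga8-Cre and from 0.98 to 2.06 in Myh11-Cre against Wild Type, from -1.07 to -0.21 between the lines, and from 0.88 to 1.70 for both lines. DESeq2 called 30, 830, 19 and 333 genes in Itga8-Cre and Myh11-Cre against Wild Type, between the lines and for both lines, and 6 and 5 members in the second and the last. Without a filter on low counts edgeR called 1 gene in Myh11-Cre and 3 for both lines; without the 3 libraries highest in general epithelial genes (Itga8-Cre mouse 3 and Myh11-Cre mice 2 and 3) it called 1 gene in Myh11-Cre and 1 between the lines. The cause was not tested. Mouse numbers were not taken as pairs, since the labels name nothing that a number shares. Even so, 5 of 9 same-numbered pairs had residual correlations above 0.1. All 9 were positive (0.039 to 0.39) and 15 of 18 other pairs negative (-0.35 to 0.24), and 7 of 9 libraries correlated best with one of their own number. Residuals cancel out within a group, so the negative pairs and the best matches follow in part from the positive ones and add little. A factor shared by number is possible and was not tested. The replicate block by mouse number called 1 gene and 0 members in Myh11-Cre against Wild Type, 0 genes in the others, and changed no other call.

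With 1 library left out, DESeq2 called 0 to 3 members in Itga8-Cre, 2 to 8 in Myh11-Cre, 0 to 3 between the lines and 1 to 7 for both lines, while 0.0208% to 3.1%, 0.162% to 8.64%, 0.00596% to 4.53% and 0.0805% to 5.52% of all genes were called; without the 3 libraries above it called 1, 1, 1 and 2. Krt8 and Krt18 in Itga8-Cre ranged from -0.47 to 2.48 and from -0.60 to 1.88 with 1 library left out, and were -0.47 and -0.60 without the 3 libraries. Wt1 between the lines ranged from -0.069 to 0.63, being -0.069 without Itga8-Cre 2 and -0.028 without Myh11-Cre 3. Without the 3 libraries Upk1b and Krt7 between the lines turned to 0.39 each. The number of members correlated with Msln at an adjusted p under 0.05 was 5 to 8, with 8 over all libraries and 5 without Wild Type 3. No share over all genes is given beside these counts. Log2 ratios that turned sign with 1 library left out were Krt19/Krt8 (-0.47 to 0.68), Krt7/Msln (-0.41 to 0.30), Krt8/Msln (-0.31 to 0.80), Krt7/Krt8 (-0.62 to 0.36) and Krt18/Msln (-0.68 to 0.16). With 3 mice a group and tagwise variation of up to 0.817, the width of the intervals limits what can be called for Krt8 and Krt18.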
